A study of Mus musculus with 27 samples.

Results

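Glutathione and NRF2 detoxification genes were followed in organoids grown from mouse thyroid gland cells. The set holds 10 of the 50559 gene symbols counted, namely Gsto1, Gsta4, Gstm1, Gstp1, Gclc, Gclm, Gpx2, Txnrd1, Nqo1 and Hmox1. The genes were chosen by name, after Gsto1 had been seen to give more counts than any other gene except ribosomal RNA genes. The level of Gsto1 against other genes is therefore a description with no test. The changes with day and dose were not used as such in that choice, although it was made with results of these data known. The high place of Gsto1 comes from the day 11 libraries, so its rise with day is not independent of the choice.

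Each library came from organoids of C57BL/6 mice aged 8 to 12 weeks, female per the study's methods, grown in Matrigel with EGF, FGF2, the ROCK inhibitor Y27632 and B27. Unirradiated organoids were collected at days 5, 7 and 11, and organoids given 2, 4 or 7 Gy of photons after 5 days of culture were collected at days 7 and 11. Each of the 9 groups held 3 libraries, 1 from each of the cultures mTG11, mTG12 and mTG14, so that the 27 libraries rest on 3 cultures. The labels number 3 mice, while the series text speaks of 4, and the culture names could not be tied to a mouse number.

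Glutathione is a small thiol that cells use to neutralise peroxides and reactive electrophiles. Glutamate-cysteine ligase makes its precursor, glutathione transferases couple it to electrophiles, and glutathione peroxidases spend it to reduce peroxides. The transcription factor NRF2, encoded by Nfe2l2, is held low by KEAP1 in resting cells and, when electrophiles or oxidants block KEAP1, pairs with small MAF proteins at antioxidant response elements to raise many of these genes. The thyroid is known for a high oxidant load, because hormone synthesis needs hydrogen peroxide.

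Library totals ran from 2528866 to 5723150 counts, so that 3 counts equalled 0.524 to 1.19 CPM (the count divided by the library total and scaled to 1000000), and the lowest count of any of the 10 genes in any library was 27.7, for Hmox1. Markers of differentiated thyrocytes were near absent. Thyroglobulin (Tg) reached at most 16.7 CPM, while Slc5a5, Tshr and Pax8 had means over the 27 libraries of 0.0542, 0.109 and 0.229 CPM. The thyroid transcription factors Foxe1 and Nkx2-1 averaged 29.8 and 12.5 CPM. The basal and stratified epithelium keratins Krt5 and Krt14 averaged 4041 and 3373 CPM. Over the libraries, 10 fibroblast markers summed to 10.5 to 157 CPM, 7 immune markers to 5.52 to 65.5 CPM, most of it Cd68, and 5 endothelial markers to 0.200 to 2.01 CPM, while Cd3e had no count. The RNA is that of all cells in an organoid, so more cells of a type and more RNA per cell cannot be told apart.

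The 10 genes lie on 6 chromosomes of the GRCm39 genome and are all protein coding. Gsto1 lies at chr19:47842686-47853229 on the plus strand and Gstp1 at chr19:4085405-4088068 on the minus strand. Gstm1 is found at chr3:107919380-107925380 on the minus strand and Gclm at chr3:122039126-122065061 on the plus strand. The plus strand of chromosome 9 carries Gclc at chr9:77661797-77701770 and Gsta4 at chr9:78090056-78117763. Hmox1 occupies chr8:75820241-75827217 on the plus strand and Nqo1 chr8:108113835-108129934 on the minus strand. Txnrd1 spans chr10:82669785-82733546 on the plus strand and Gpx2 chr12:76839107-76842326 on the minus strand. On the opposite strand Gsto1 overlaps Cfap43 (mean 4.32 CPM) and Gpx2 overlaps Fntb (mean 17.4 CPM), and whether the counting used strand is not given in the sources used here.

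Proximal promoters were searched for the antioxidant response element core, because it is the site through which NRF2 acts. RefSeq promoter windows of 300 bases, 250 before and 50 after a start, were found for 7 of the 10 genes, in 10 windows, and each window matched GRCm39 exactly once. Gsta4, Hmox1 and Gclc had no entry. The core TGACNNNGC, read on both strands, occurred in 2 of the 10 windows, against 12.4% of the 32851 windows of all genes. The windows with the core are shown because they are the ones the search found, each as 49 bases with the core in capitals, written on the strand of the gene, on which it reads as its reverse complement. The first lies upstream of Gclm at chr3:122039052-122039100 on the plus strand, with the first capital at position -134 from the start. The second lies upstream of an inner start of Txnrd1 at chr10:82694928-82694976 on the plus strand, with the first capital at position -92.
Gclm: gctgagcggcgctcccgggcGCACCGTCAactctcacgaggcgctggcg
Txnrd1: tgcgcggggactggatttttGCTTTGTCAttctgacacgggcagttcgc
The windows of Gsto1, Gstm1, Gstp1, Gpx2 and Nqo1 held no such core, which says only that these letters are not in those windows. The Gsto1 window, chr19:47843162-47843461, lies inside the gene as placed above, so the sequence upstream of that gene start was not searched.

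Gsto1, an omega class glutathione transferase that also reduces dehydroascorbate and protein mixed disulfides, averaged 11661 CPM over the 27 libraries, or 1.17% of all counts. It ranked 4th among 50559 symbols, behind the ribosomal RNA genes Rn18s-rs5, mt-Rnr2 and mt-Rnr1 at 64232, 40538 and 18775 CPM, and just ahead of LOC118568312 at 10066 CPM, a row that the reference tables did not name. The rows Sprr2a1 and Sprr2a2 averaged 9334.5 and 9204 CPM, and whether reads were divided between them was not tested. Among single rows, with ribosomal and mitochondrial RNA left out, Gsto1 ranked 1st of 50519. That place belonged to the late organoids. At day 5 Gsto1 ranked between 12th and 16th in a library, in unirradiated organoids at day 7 it ranked 9th in each library, and in unirradiated organoids at day 11 it ranked 4th in each library.

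Per kilobase of longest transcript, Gsto1 stood at 6033 CPM per kilobase, again 4th, of 40303 genes with a length. Gsta4 followed at 721 CPM per kilobase, Gstp1 at 142, Gstm1 at 110, Gpx2 at 103, Nqo1 at 58.7, Gclm at 31.3, Txnrd1 at 18.6, Gclc at 18.4 and Hmox1 at 9.46. Txnrd1 and Gclc were thus neighbours at almost the same level, and the ranges of Gstm1, Gstp1 and Gpx2 over libraries overlapped. The libraries count transcript 3′ ends, where counts need not scale with length, so CPM is given as well. In CPM the means over the 27 libraries were 1627 for Gsta4, 325 for Gpx2, 198 for Gclm, 181 for Gstm1, 161 for Nqo1, 128.5 for Gstp1, 85.6 for Gclc, 67.5 for Txnrd1 and 14.9 for Hmox1. Gsto1, Gsta4 and Hmox1 thus held the same places on both scales, while Gstp1 followed Gsta4 per kilobase and lay below Gpx2, Gclm, Gstm1 and Nqo1 in CPM.

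Gsto1 rose through culture in unirradiated organoids. In cultures mTG11, mTG12 and mTG14 it measured 3478, 4561 and 3368 CPM at day 5, 6944, 5822 and 6503 CPM at day 7, and 18089, 13287 and 16338 CPM at day 11. The 3 days did not overlap. The means were 3802 ± 659, 6423 ± 565 and 15905 ± 2430 CPM (SD, n = 3 each). Fold changes below come from edgeR's quasi-likelihood test after TMM scaling and can differ from ratios of CPM, since TMM corrects totals for highly expressed genes. Gsto1 was 1.87-fold higher at day 7 than at day 5 (log2 fold change 0.91 ± 0.13 SE, edgeR adjusted p = 0.00064) and 2.48-fold higher at day 11 than at day 7 (1.31 ± 0.13, edgeR adjusted p = 3.3e-05). Over the whole interval it was 4.64-fold higher (2.21 ± 0.14, edgeR adjusted p = 2.5e-07), and higher in 3 of 3 cultures.

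**Figure D1:**
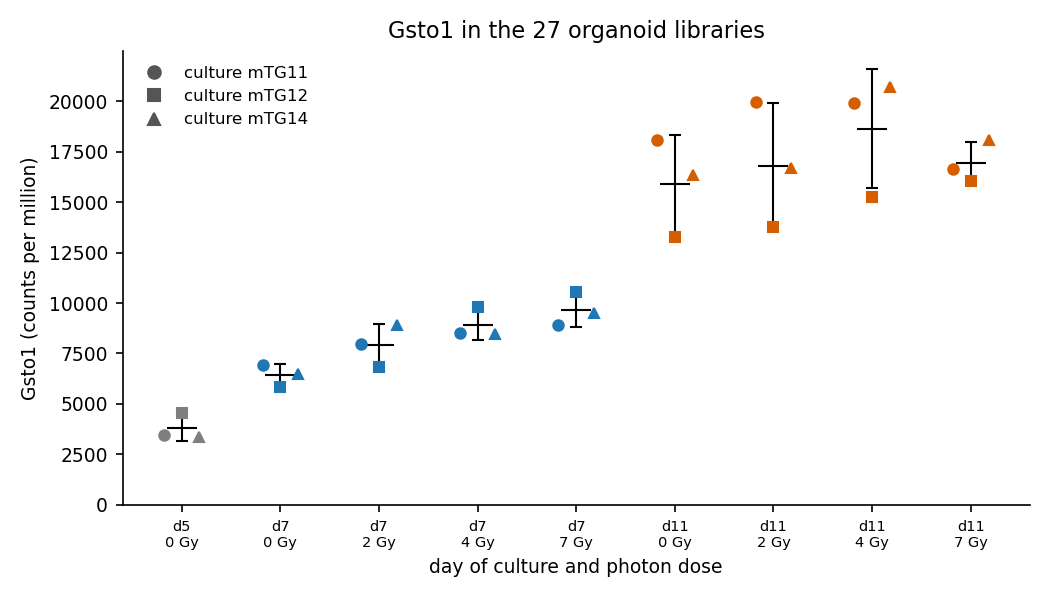
Gsto1 in CPM (vertical axis, from 0) in each of the 27 libraries, by day and photon dose (horizontal axis). Points are libraries, shaped by culture and coloured by day, and the bar with whiskers is the mean ± SD of 3 libraries. Unirradiated groups step up from 3802 to 6423 to 15905 CPM, and the 4 groups at day 7 climb with dose to 9646 CPM.

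Irradiated organoids at day 7 held more Gsto1 than their controls. At 2 Gy the cultures measured 7985, 6845 and 8921 CPM, at 4 Gy 8511, 9786 and 8450 CPM, and at 7 Gy 8899, 10543 and 9495 CPM, in the order mTG11, mTG12, mTG14. The 2 Gy libraries overlapped the controls, and the 4 and 7 Gy libraries all lay above them. The log2 fold change was 0.27 ± 0.10 at 2 Gy (edgeR adjusted p = 0.46), 0.42 ± 0.10 at 4 Gy (edgeR adjusted p = 0.048) and 0.58 ± 0.10 at 7 Gy (edgeR adjusted p = 0.0031), the last a 1.49-fold increase in 3 of 3 cultures. The call at 4 Gy was lost when any 1 of the 6 libraries was left out, with log2 fold changes of 0.35 to 0.46 and edgeR adjusted p of up to 0.22. The call at 7 Gy was kept in each of the 6 such fits.

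At day 11 no dose moved Gsto1 past the threshold. The means were 16794 ± 3121 CPM at 2 Gy, 18628 ± 2944 CPM at 4 Gy and 16920 ± 1035 CPM at 7 Gy, all overlapping the 15905 ± 2430 CPM of the controls. The log2 fold changes were 0.04 ± 0.15, 0.20 ± 0.15 and 0.05 ± 0.15 (edgeR adjusted p = 1.00, 0.83 and 0.93). Day 11 minus day 7, the response to 7 Gy differed by -0.50 ± 0.19 on the log2 scale (edgeR adjusted p = 0.20), which passed the threshold once the culture was kept as a block (-0.50 ± 0.15, edgeR adjusted p = 0.047) or the filter on low counts was dropped (-0.50, edgeR adjusted p = 0.013).

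Markers of other cell types also changed over the days. The summed level of 9 secretory epithelium markers (among them Ltf, Wfdc2, Scgb3a1 and Bpifa1) was 1057 to 2132 CPM at day 5, 3766 to 6117 CPM at day 7 and 11821 to 14005 CPM at day 11 without irradiation. Most of it was Ltf and Wfdc2, with means over the 27 libraries of 3653 and 2957 CPM. From day 7 to day 11, where 21.2% of all genes were called, the 9 genes gave 2 higher (Ltf and Krt18) and 1 lower (Scgb1a1). Their median log2 fold change was 0.02, so the list did not move as its sum did. The sum of 10 stratified epithelium markers went the other way, at 21582 to 27383, 19163 to 21178 and 8162 to 10047 CPM, with 8 lower and 1 higher from day 5 to day 11. All 6 multiciliated cell markers were higher at day 11 than at day 5 (median log2 fold change 4.76). Their sum stayed low, at 6.46 to 13.7 CPM at day 5 and 37.9 to 84.5 CPM at day 11. At day 5, 3 of these 6 genes had at most 3 counts in each library, so that median rests partly on values at the floor. Of 10 fibroblast markers 5 were lower over that interval, and of the 2 immune markers tested Cd68 was higher. Over the same interval 41.3% of all genes were called, and 52.5% of genes averaging 10 counts or more. The fibroblast count was thus near the latter share.

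With dose at day 7 the secretory sum overlapped between groups, at 3066 to 5318 CPM at 2 Gy, 3356 to 4946 CPM at 4 Gy and 3927 to 5162 CPM at 7 Gy. Of the 10 stratified markers Krt6a and Ivl were higher and Trp63 and Lor lower at 7 Gy, where 6.95% of all genes were called. The summed level of that list was 18698 to 25482 CPM beside 19163 to 21178 CPM in controls. With dose at day 11 the multiciliated sum was 16.1 to 36.2, 11.9 to 30.8 and 13.1 to 33.9 CPM at 2, 4 and 7 Gy, below every control library. At 7 Gy 2 of the 6 genes were called, beside 1.52% of all genes. Once the culture was a block all 6 were called at 4 and 7 Gy, beside 1.2% and 6.51% of all genes. The part of these cell types in the Gsto1 values was not tested.

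The genes whose pattern was most like that of Gsto1, by Pearson correlation of log2(TMM-scaled CPM + 1) over the 27 libraries among 9537 genes, were AA986860 (r = 0.984), Kctd14 (0.980), Ifi205 (0.977), Clca3b (0.976) and Muc21 (0.975). These are descriptions, since the libraries share cultures, days and scaling. None of them came near its level. AA986860 averaged 11.3, 32.6 and 103 CPM in unirradiated organoids at days 5, 7 and 11, and Muc21, a membrane mucin, 3.01, 11.5 and 127 CPM. Among the other 9 detoxification genes the closest was Txnrd1 (r = 0.790) and the most opposed Gpx2 (r = -0.781), while Nqo1 and Hmox1, at -0.02 and -0.01, did not follow it.

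The make-up of the glutathione transferases narrowed onto Gsto1. Of the summed CPM of 25 transferase genes, Gsto1 supplied 52.3 ± 4.70% at day 5, 70.1 ± 1.20% at day 7 and 85.1 ± 1.72% at day 11 without irradiation (SD, n = 3). At day 7 its share was 76.7 ± 2.15% at 2 Gy, 79.0 ± 1.56% at 4 Gy and 80.7 ± 1.08% at 7 Gy. Gsta4 made up 27.3 ± 1.87% at day 5 and 8.26 ± 1.06% at day 11, and Gstm1 6.89 ± 1.82% and 1.22 ± 0.183%. Shares of a sum fall when its largest part grows. In level Gsta4 was only 1.17-fold and Gstm1 1.96-fold lower at day 11 than at day 5. The family total rose from 7237 ± 587 to 18652 ± 2555 CPM over the same days.

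**Figure D2:**
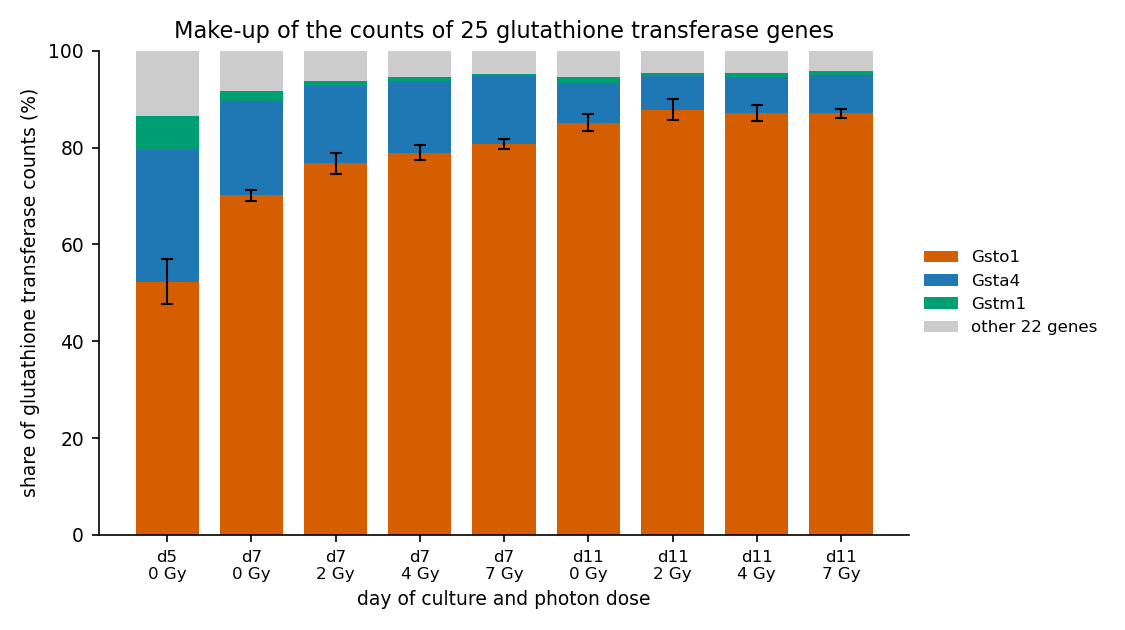
Share of the summed CPM of 25 glutathione transferase genes (vertical axis, percent) by day and photon dose. Stacked bars are means of 3 libraries, and whiskers give the SD of the Gsto1 share. The share of Gsto1 grows from 52.3% at day 5 to 85.1% at day 11 without irradiation, while the shares of Gsta4 and Gstm1 shrink.

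Gsta4, the alpha class transferase that detoxifies the lipid peroxidation product hydroxynonenal, was the second most abundant of the 10 genes and the steadiest, with 1089 to 2019 CPM over the 27 libraries. Its libraries measured 1897, 2019 and 1988 CPM at day 5, 1781, 1821 and 1741 CPM at day 7, and 1597, 1514 and 1459 CPM at day 11. These 3 days did not overlap in CPM, yet after TMM scaling day 7 against day 5 gave a log2 fold change of only 0.01 ± 0.07 (edgeR adjusted p = 0.97). Day 11 lay below day 7 (-0.23 ± 0.07, edgeR adjusted p = 0.034) and below day 5 (-0.22 ± 0.07, edgeR adjusted p = 0.021). Against day 7 the call was lost without mTG12 or mTG14 of either day (-0.21 to -0.22, edgeR adjusted p of up to 0.11), without TMM factors (edgeR adjusted p = 0.051), without the filter on low counts (0.059) and with only the compared groups fitted (0.094). Against day 5 it was lost without mTG12 or mTG14 of day 5 or mTG14 of day 11 (-0.22 in each, edgeR adjusted p of up to 0.064) and without the filter on low counts (0.058). No dose moved Gsta4 past the threshold at either day, with log2 fold changes between -0.28 and 0.04.

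Gstm1, a mu class transferase, fell from day 5 to day 7 and was lower in irradiated organoids than in controls. In the order mTG11, mTG12, mTG14 it measured 607, 396 and 476 CPM at day 5, 224, 130 and 193 CPM at day 7, and 293, 197 and 194 CPM at day 11. Every day 5 library lay above every later one. The fall from day 5 to day 7 was 2.45-fold (log2 fold change -1.29 ± 0.21, edgeR adjusted p = 0.0014) and day 11 remained 1.96-fold below day 5 (-0.97 ± 0.21, edgeR adjusted p = 0.0030). Day 11 against day 7 gave 0.32 ± 0.21 (edgeR adjusted p = 0.33), which passed with the culture as a block (0.33 ± 0.10, edgeR adjusted p = 0.027), higher in 3 of 3 cultures.

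Irradiation lowered Gstm1 step by step at day 7. From controls of 224, 130 and 193 CPM, the cultures went to 147, 85.8 and 103 CPM at 2 Gy, 110, 69.3 and 85.7 CPM at 4 Gy and 62.7, 46.8 and 63.1 CPM at 7 Gy. Culture mTG12 was the lowest in every one of these groups, and the 4 and 7 Gy libraries all lay below the controls. The log2 fold change was -0.74 ± 0.23 at 2 Gy (edgeR adjusted p = 0.38, and 0.0013 with the culture as a block), -1.10 ± 0.23 at 4 Gy (0.026) and -1.67 ± 0.24 at 7 Gy (0.00085), the last a 3.18-fold reduction. The 4 Gy call was lost without mTG11 of the controls (-0.95, edgeR adjusted p = 0.12), without their mTG14 (-1.04, 0.094), without mTG12 at 4 Gy (-0.94, 0.15) and without mTG14 at 4 Gy (-1.11, 0.074). It was kept in all 6 such fits at 7 Gy.

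At day 11 the same gene was lower in all 3 cultures at each dose, at 207, 115 and 116 CPM after 2 Gy, 249, 109 and 141 CPM after 4 Gy and 187, 141 and 151 CPM after 7 Gy, against 293, 197 and 194 CPM. Only the 7 Gy libraries did not overlap the controls. The log2 fold changes of -0.68 ± 0.29, -0.47 ± 0.29 and -0.55 ± 0.29 did not pass (edgeR adjusted p = 0.83, 0.77 and 0.41), and with the culture as a block all of them did (-0.70 ± 0.12, -0.52 ± 0.12 and -0.54 ± 0.12, edgeR adjusted p = 0.016, 0.046 and 0.012). The 7 Gy response of Gstm1 at day 11 was 1.15 ± 0.41 higher on the log2 scale than at day 7 (edgeR adjusted p = 0.16), and 1.15 ± 0.19 with the block (0.00038). Without the filter on low counts the value was again 1.15, with an edgeR adjusted p of 8.2e-09. That setting called 1234 genes for this difference, against 660 with the filter.

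Gstp1, the pi class transferase, lay between 84.9 and 181 CPM. Its estimated counts were whole numbers in only 1 of 27 libraries, as where reads are divided between genes, and the row of its close relative Gstp2 ran parallel at 135 ± 3.08, 105 ± 5.48 and 141 ± 17.0 CPM on days 5, 7 and 11. Gstp1 itself measured 157 ± 3.48, 118 ± 4.52 and 156 ± 19.4 CPM on those days, and the 2 rows cannot be told apart. Day 11 was above day 7 (log2 fold change 0.40 ± 0.09, edgeR adjusted p = 0.010), and day 7 against day 5 gave -0.26 ± 0.10 (edgeR adjusted p = 0.076). At 7 Gy the value was -0.36 ± 0.12 at day 7 (edgeR adjusted p = 0.087, with the block 0.029) and -0.38 ± 0.13 at day 11 (0.17, with the block 0.017), lower in 3 of 3 cultures at both days.

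The subunits of glutamate-cysteine ligase, which catalyses the first step of glutathione synthesis, moved differently. Gclm, the modifier subunit, measured 341, 266 and 350 CPM at day 5, 238, 237 and 221 CPM at day 7, and 237, 190 and 201 CPM at day 11. The day 5 libraries lay above all others. Day 11 was below day 5 (log2 fold change -0.47 ± 0.12, edgeR adjusted p = 0.0074), and day 7 gave -0.31 ± 0.12 (0.080, with the block -0.30 and 0.039). After irradiation at day 7 Gclm stood at 184 ± 35.8, 177 ± 25.0 and 154 ± 13.6 CPM for 2, 4 and 7 Gy, each library below each control library. It was 1.52-fold lower at 7 Gy (-0.60 ± 0.14, edgeR adjusted p = 0.018), while 4 Gy gave -0.43 ± 0.14 (0.15, with the block 0.043) and 2 Gy -0.37 ± 0.14 (0.48). The 7 Gy call was lost without any 1 control library or without mTG11 or mTG12 at 7 Gy (-0.56 to -0.61, edgeR adjusted p of up to 0.078). The gene overlaps Gm6061, a processed pseudogene on the same strand with a mean of 121 CPM, and Gclm counts were whole in 13 of 27 libraries, so that reads may be shared between these rows.

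Gclc, the catalytic subunit, did not pass the threshold in any comparison with the settings used throughout, and passed in some alternatives. It measured 87.5, 62.0 and 58.9 CPM in controls at day 7 and 90.2, 94.6 and 98.7 CPM at 7 Gy, without overlap. The log2 fold change was 0.44 ± 0.15 (edgeR adjusted p = 0.10), and 0.45 ± 0.13 with the culture as a block (0.033), higher in 3 of 3 cultures. Day 11 against day 7 gave 0.40 ± 0.17 (0.11), and 0.40 ± 0.12 with the block (0.029). Both also passed without the filter on low counts (edgeR adjusted p = 0.011 and 0.012) and without mTG11 of the day 7 controls (0.62 and 0.57, edgeR adjusted p = 0.031 and 0.040), the highest control library. Gclm exceeded Gclc in every library. The ratio of their CPM at day 7 was 3.43 ± 0.615 without irradiation, 2.88 ± 0.835 at 2 Gy, 2.23 ± 0.323 at 4 Gy and 1.62 ± 0.0772 at 7 Gy, with no overlap between the 2.72 to 3.83 of the controls and the 1.57 to 1.71 at 7 Gy. At day 11 it was 2.30 ± 0.135 in controls and 1.95 ± 0.416 at 7 Gy, which overlapped.

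Gpx2, the glutathione peroxidase typical of gut and other epithelia, fell steadily through culture. It measured 648, 659 and 579 CPM at day 5, 340, 389 and 320 CPM at day 7, and 273, 297 and 249 CPM at day 11, and the days did not overlap. The log2 fold changes were -0.70 ± 0.10 for day 7 against day 5 (edgeR adjusted p = 0.00042), -0.36 ± 0.10 for day 11 against day 7 (0.019) and -1.06 ± 0.10 for day 11 against day 5 (4e-06), the last a 2.08-fold reduction in 3 of 3 cultures. The middle call was lost without mTG12 of day 7 (-0.27, edgeR adjusted p = 0.078), mTG11 of day 11 (-0.35, 0.055) or mTG14 of day 11 (-0.32, 0.075). After 7 Gy at day 7 Gpx2 stood at 277, 280 and 254 CPM, below every control library (-0.38 ± 0.10, edgeR adjusted p = 0.029), a call lost without any 1 library except the control mTG11 (-0.29 to -0.42, edgeR adjusted p of up to 0.12). At day 11 it measured 190 ± 27.7 CPM after 2 Gy, 259 ± 58.2 CPM after 4 Gy and 302 ± 39.1 CPM after 7 Gy, against 273 ± 23.8 CPM. None of these passed.

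Txnrd1, the cytosolic thioredoxin reductase, rose between days 7 and 11 with a wide spread. It measured 56.2, 54.0 and 50.7 CPM at day 5, 59.1, 44.3 and 38.1 CPM at day 7, and 120, 52.3 and 82.2 CPM at day 11. Culture mTG11 was the highest and mTG12 the lowest at day 11, and the latter overlapped the earlier days. The log2 fold change was 0.85 ± 0.24 against day 7 (edgeR adjusted p = 0.024) and 0.81 ± 0.24 against day 5 (0.017). Without mTG11 of day 11 these fell to 0.53 and 0.49 (edgeR adjusted p = 0.10 and 0.085). The first was also lost without mTG12 of day 7 (0.81, 0.067), mTG14 of day 7 (0.74, 0.089) or mTG14 of day 11 (0.85, 0.058), and the second without mTG14 of day 5 (0.76, 0.059). Doses did not move it past the threshold, with log2 fold changes between -0.10 and 0.18.

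Nqo1, a quinone reductase and a classic NRF2 target, dipped at day 7. It measured 255, 259 and 287 CPM at day 5, 133, 121 and 137 CPM at day 7, and 275, 155 and 163 CPM at day 11. All day 7 libraries lay below all others, and culture mTG11 stood apart at day 11. The fall to day 7 was 1.85-fold (log2 fold change -0.88 ± 0.18, edgeR adjusted p = 0.0039). The return to day 11 was 0.60 ± 0.18 (0.031), and 0.30 without mTG11 of day 11 (edgeR adjusted p = 0.071). That call was also lost without mTG11 (0.59, 0.079) or mTG12 (0.55, 0.090) of day 7, and with only the compared groups fitted (0.61, 0.055). At day 7 the 4 and 7 Gy libraries lay below the controls, at 113 ± 3.67 and 108 ± 5.79 CPM against 130 ± 8.82 CPM, with log2 fold changes of -0.26 ± 0.11 and -0.28 ± 0.11 that did not pass (edgeR adjusted p = 0.31 and 0.18).

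Hmox1, the inducible enzyme that opens the heme ring, was the scarcest of the set. It measured 13.7, 28.1 and 22.7 CPM at day 5, 10.4, 12.0 and 9.61 CPM at day 7, and 17.6, 11.9 and 13.1 CPM at day 11. Day 7 lay below day 5 in 3 of 3 cultures (log2 fold change -0.87 ± 0.24, edgeR adjusted p = 0.022). The call was lost without mTG12 (-0.66, 0.091) or mTG14 (-0.82, 0.072) of day 5 and without mTG11 (-0.83, 0.063) or mTG14 (-0.82, 0.072) of day 7. At 7 Gy and day 7 it measured 17.1, 17.5 and 12.2 CPM, above every control library, with a log2 fold change of 0.55 ± 0.18 that did not pass (edgeR adjusted p = 0.093, and 0.051 with the block). Its counts were whole in 7 of 27 libraries.

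**Figure D3:**
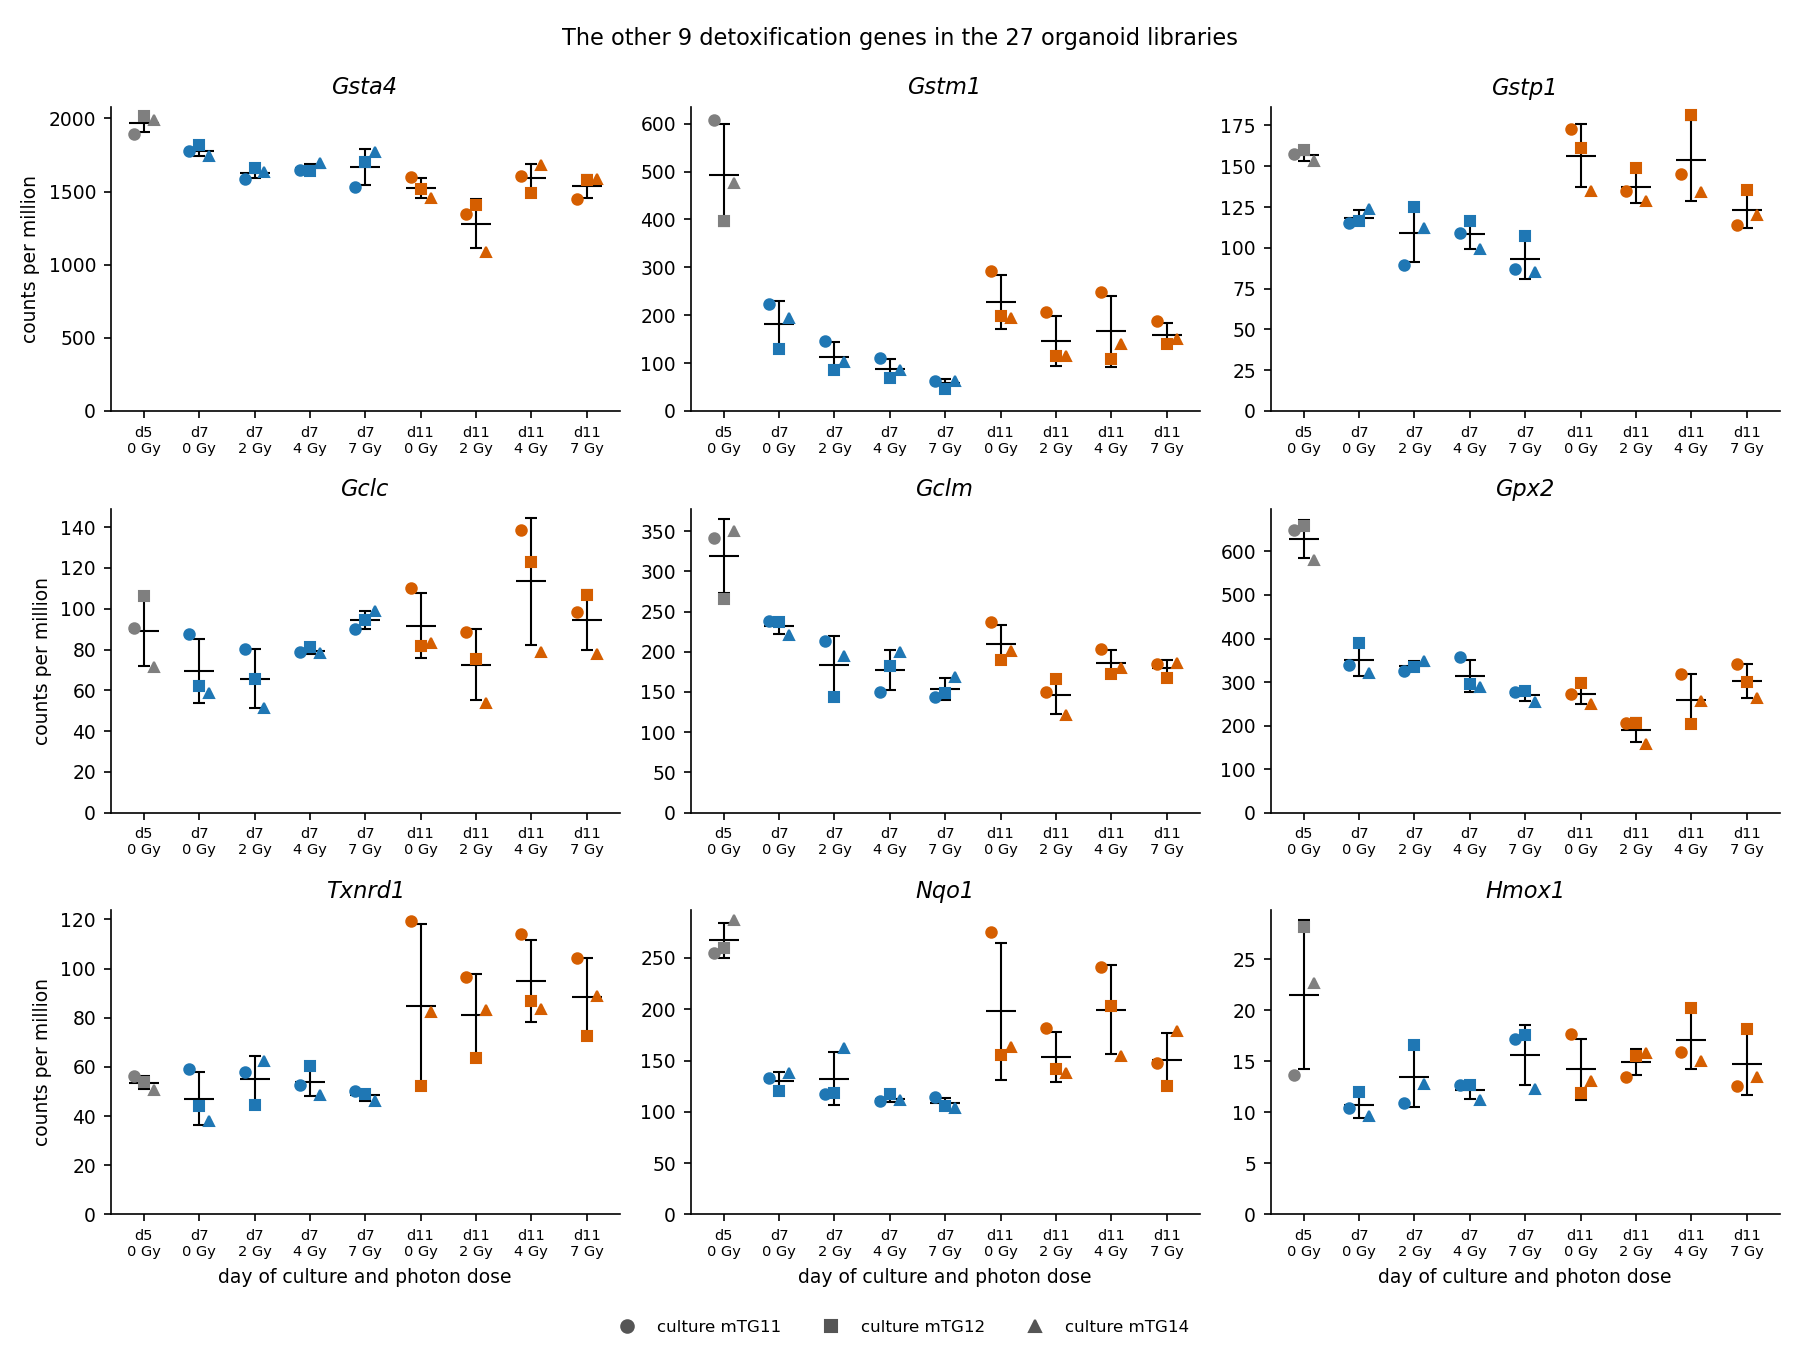
The other 9 detoxification genes in CPM (vertical axes, each from 0) in each of the 27 libraries, by day and photon dose. Points are libraries, shaped by culture and coloured by day, and the bar with whiskers is the mean ± SD of 3 libraries. Gstm1 and Gpx2 step down from day 5, Nqo1 dips at day 7, and culture mTG11 stands highest for Txnrd1 and Nqo1 in unirradiated organoids at day 11.

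The calls among the 10 genes were set beside those over all genes. From day 5 to day 7, 1 of the 10 genes rose and 4 fell, where 21.6% of the 18442 genes tested were called. From day 7 to day 11, 4 rose and 2 fell, where 21.2% were called. From day 5 to day 11, 2 rose (Gsto1 and Txnrd1) and 4 fell (Gsta4, Gstm1, Gpx2 and Gclm), where 41.3% were called. With the culture as a block the counts were 6, 8 and 6, beside 25.0%, 24.8% and 43.6% of all genes. Well-counted genes, those averaging 10 counts or more over the libraries of a fit, as all 10 do, were called more often, at 32.0%, 29.4% and 52.5% of 12956, and with only such genes tested 5, 6 and 6 of the 10 were called. The count for day 11 against day 5 was thus near the share of all genes, and none of these differences in share was tested. The median log2 fold change of the 10 genes was -0.29, 0.40 and -0.26 for these comparisons, and that of all genes 0.04, 0.00 and 0.06. These comparisons share control libraries and are not independent of each other.

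Without the block, irradiation gave fewer calls than time did, among the 10 genes as among all genes. At day 7 none of the 10 passed at 2 Gy (0.124% of 19346 genes called), 2 passed at 4 Gy (1.63% of genes) and 4 at 7 Gy (6.95% of genes), namely Gsto1, higher, and Gstm1, Gpx2 and Gclm, lower. With the block the counts were 1, 3 and 6, beside 0.718%, 5.22% and 11.4% of all genes, and the further genes at 7 Gy were Gstp1, lower, and Gclc, higher. Of the well-counted genes 0.2%, 2.91% and 12.0% were called at 2, 4 and 7 Gy. At day 11 none passed at any dose. All genes gave 0.0%, 0.00502% and 1.52% of 19901 at 2, 4 and 7 Gy. At 2 Gy edgeR called 0 genes and DESeq2 called 1. An unadjusted edgeR p under 0.05 was seen there for 1157 of the 19901 genes, near the share that arises with no effect. With the block 1, 1 and 2 of the 10 passed (Gstm1 at each dose and Gstp1 at 7 Gy), beside 0.362%, 1.2% and 6.51% of all genes. The difference between the 7 Gy responses at the 2 days passed for none of the 10 (3.01% of 21928 genes called), and with the block for Gsto1 and Gstm1 (5.26% of genes). Of the well-counted genes 0.0%, 0.00754% and 2.85% were called at the 3 doses of day 11, and 6.14% for that difference. Dropping the filter on low counts, with no block, also brought some of the 10 past the threshold. At day 7 these were Gstm1 and Gclm at 2 Gy, Gclm at 4 Gy and Gstp1 and Gclc at 7 Gy. At day 11 they were Gstm1 at each dose, Gpx2 and Gclm at 2 Gy and Nqo1 at 7 Gy. For the interaction they were Gsto1, Gstm1 and Gpx2. That setting also raised the calls among all genes, to 404, 1263 and 2211 at day 7. At day 11 it called 267, 465 and 1205 genes, and 1234 for the interaction.

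Of 5 C cell and parathyroid markers, Calcb was higher with dose at day 7. The summed level of 5 C cell and parathyroid markers was 19.0 to 40.0 CPM in controls and 76.9 to 89.2 CPM at 7 Gy. It was carried by Calcb (up to 87.6 CPM), while Calca reached 1.20 CPM, Pth 4.56 CPM and Casr 0.900 CPM, and Gcm2 had no count, so that the defining markers of both cell types were at or near 0.

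**Figure D4:**
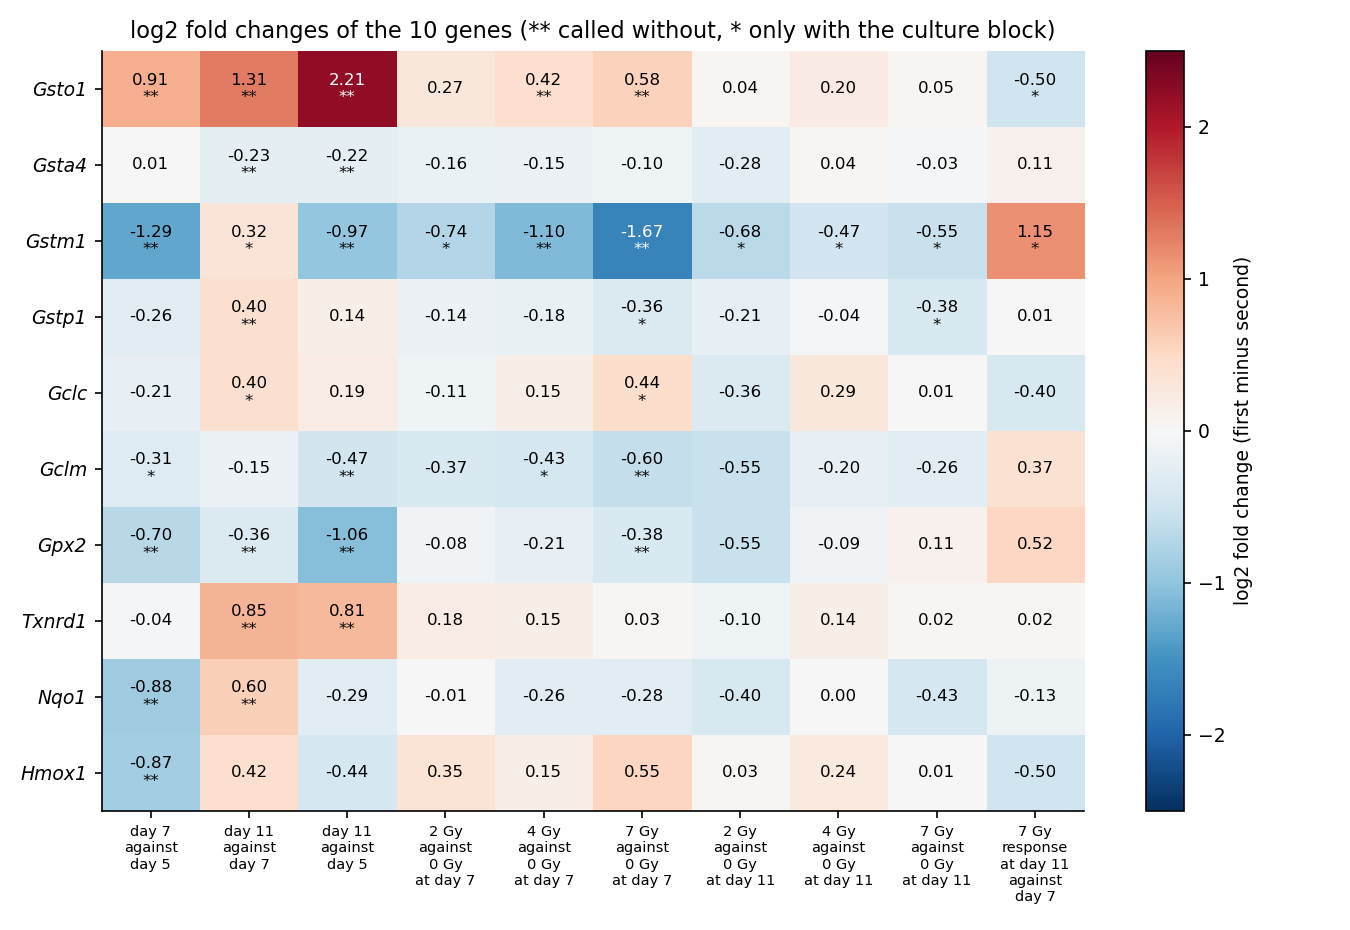
Log2 fold changes of the 10 genes (rows) in the 10 comparisons (columns), from edgeR's quasi-likelihood fit without a block, coloured from blue (lower in the first-named group) to red (higher). A double asterisk marks an adjusted p under 0.05 and a single asterisk one that passed only with the culture as a block. Gsto1 reaches 2.21 for day 11 against day 5 and Gstm1 -1.67 for 7 Gy at day 7.

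Further genes of the pathway were read against the same background, in which 41.3% of all genes were called from day 5 to day 11, with 3921 higher and 3700 lower, and 52.5% of the well-counted genes. Of 21 other glutathione transferases, 4 rose and 5 fell over that interval, or 42.9%, a share near that of all genes, with a median log2 fold change of 0.13 against 0.06 for all genes. Gsta3 rose from 97.1 ± 30.0 to 242 ± 25.3 CPM (1.46, edgeR adjusted p = 0.00020) and the microsomal Mgst1 from 83.5 ± 11.1 to 170 ± 5.55 CPM (1.17, 7.2e-05). Gsta1 fell from 153 ± 14.7 to 9.10 ± 1.59 CPM (-3.93, 1.3e-08) and Gsta2 from 22.6 ± 2.83 to 3.81 ± 0.648 CPM (-2.39, 2.6e-06), so members of the alpha class parted ways. The paralog of Gsto1, Gsto2, named here after its values were seen, measured 3.50 ± 0.759 CPM at day 5 and 18.5 ± 7.64 CPM at day 11.

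Among 12 genes of glutathione synthesis and recycling, 3 rose and 5 fell from day 5 to day 11. That was 66.7%, against 41.3% of all genes and 52.5% of the well-counted genes. Chac1, which breaks glutathione down, rose from 6.80 ± 2.17 to 38.4 ± 7.29 CPM (log2 fold change 2.61, edgeR adjusted p = 2.6e-06). Gsr, which regenerates reduced glutathione, rose from 88.3 ± 15.5 to 106 ± 6.75 CPM (0.42, 0.016). Glutathione synthetase, Gss, fell from 73.2 ± 8.24 to 38.1 ± 4.97 CPM (-0.80, 9.8e-05), and the glutaredoxin Glrx from 108 ± 21.7 to 35.6 ± 8.27 CPM (-1.46, 0.00015). The cystine importer Slc7a11 fell from 108 ± 6.07 CPM at day 5 to 48.2 ± 3.00 CPM at day 7 (-1.01, 3.4e-05) and then rose to 64.5 ± 2.96 CPM at day 11 (0.42, 0.0088).

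Of 21 genes of the peroxidases and the thioredoxin system, 9 fell and 3 rose from day 5 to day 11. That was 57.1%, against 41.3% of all genes and near the 52.5% of the well-counted genes. The median log2 fold change of the list was -0.38. Thioredoxin, Txn1, fell from 735 ± 69.6 to 303 ± 15.6 CPM (-1.13, edgeR adjusted p = 5.3e-06), while Txnip, which binds and inhibits it, rose from 52.5 ± 6.68 to 304 ± 15.0 CPM (2.68, 1.0e-07). The peroxiredoxin Prdx6 rose from 346 ± 17.4 to 981 ± 224 CPM (1.65, 1.9e-05). Gpx4, the lipid hydroperoxide reductase, rose from 105 ± 6.23 to 150 ± 22.5 CPM (0.65, 0.00025).

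The 20 other NRF2 targets split into 8 higher and 7 lower from day 5 to day 11, with a median of -0.07. That was 15 of 20, against 41.3% of all genes and 52.5% of the well-counted genes. The ferritin heavy chain gene Fth1 rose from 1362 ± 479 to 4402 ± 354 CPM (1.85, edgeR adjusted p = 1.5e-05), Osgin1 from 11.2 ± 0.772 to 75.1 ± 16.5 CPM (2.89, 2.0e-07) and the autophagy receptor gene Sqstm1 from 75.5 ± 10.9 to 184 ± 21.5 CPM (1.44, 1.6e-06). Pgd, of the pentose phosphate pathway, fell from 300 ± 19.2 to 134 ± 31.3 CPM (-1.01, 8.2e-05), and Ugdh, which makes the glucuronic acid donor, from 34.0 ± 5.22 to 15.3 ± 0.694 CPM (edgeR adjusted p = 0.00013).

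The transcript of NRF2 itself, Nfe2l2, fell from 504 ± 28.1 CPM at day 5 to 339 ± 8.26 at day 7 and 218 ± 4.51 at day 11 (log2 fold change -1.07 for day 11 against day 5, edgeR adjusted p = 8.2e-07). Of 8 regulators tested over that interval, 5 rose and 2 fell, or 87.5% against 41.3% of all genes and 52.5% of the well-counted genes. Keap1 fell from 95.3 ± 2.52 to 67.2 ± 9.55 CPM (-0.36, 0.015). The small MAF genes Maff and Mafk rose from 12.3 ± 3.66 to 47.3 ± 5.67 CPM (2.10, 5.8e-06) and from 8.96 ± 1.23 to 17.1 ± 3.58 CPM (1.08, 0.0015). Bach1, which represses NRF2 targets, rose from 28.7 ± 1.96 to 49.6 ± 8.36 CPM (0.93, 0.00054).

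**Figure D5:**
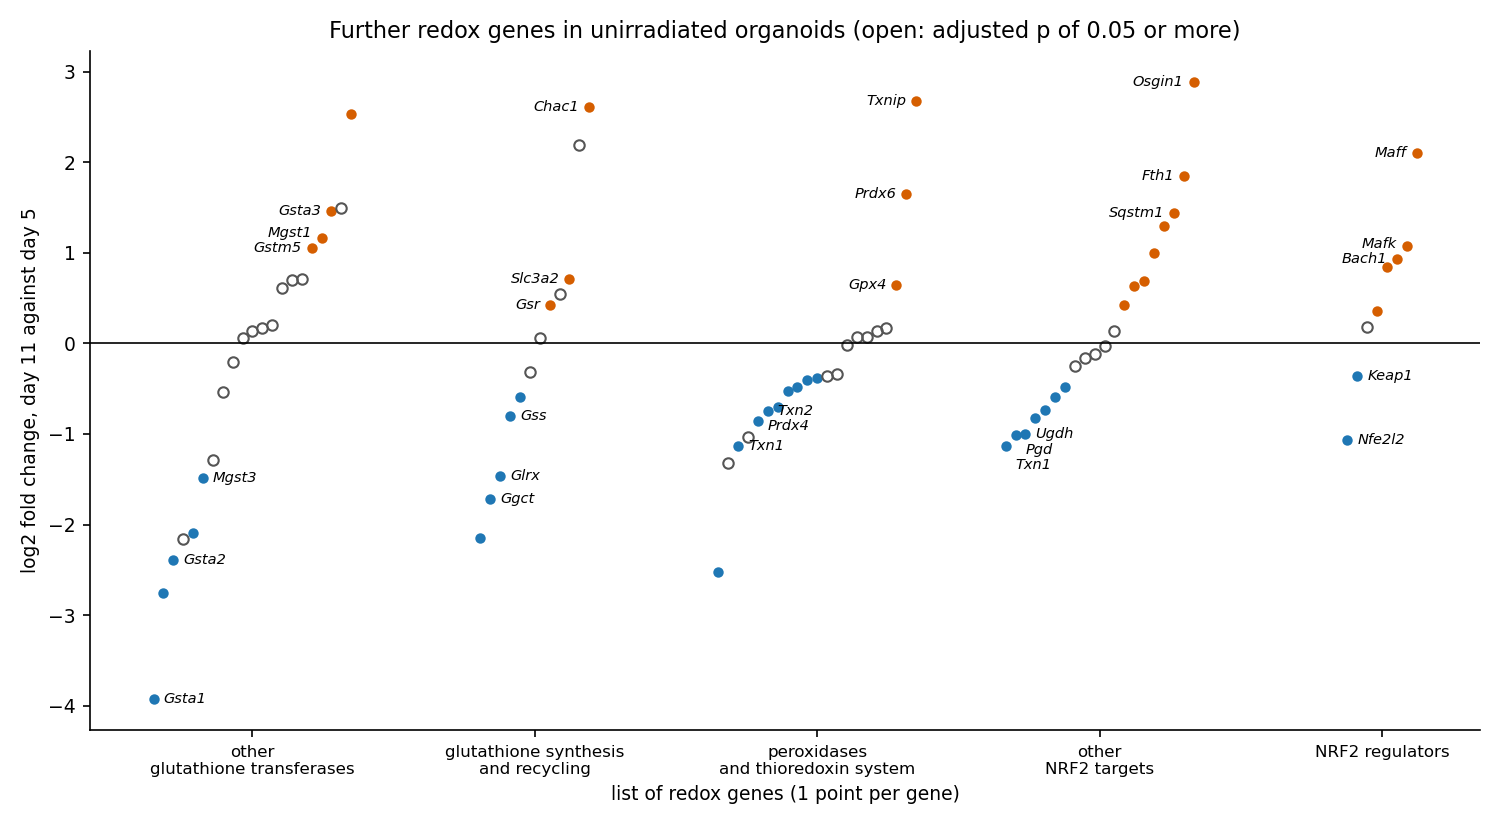
Log2 fold changes of further redox genes (1 point per gene, vertical axis) for day 11 against day 5 in unirradiated organoids, by list (horizontal axis). Filled orange and blue points passed edgeR's test higher or lower, open points did not, and the named genes are the largest changes among well-counted genes. Every list holds genes that rose and genes that fell, from Osgin1 at 2.89 to Gsta1 at -3.93.

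The 5 lists name 77 genes, some of them on 2 lists and counted in each. With dose at day 7 the lists gave 1, 3 and 11 calls among 81 list entries tested at 2, 4 and 7 Gy. Of all genes 0.124%, 1.63% and 6.95% were called, and of the well-counted genes 0.2%, 2.91% and 12.0%. With the block the counts were 2, 14 and 25, beside 0.718%, 5.22% and 11.4%. The NRF2 targets gave 5 of 20 at 7 Gy, and 10 with the block. Ephx1, the microsomal epoxide hydrolase, moved at every dose. It rose from 95.3 ± 8.35 CPM to 159 ± 5.01 CPM at 2 Gy (log2 fold change 0.71, edgeR adjusted p = 0.018), 191 ± 25.8 CPM at 4 Gy (0.95, 0.00052) and 202 ± 26.1 CPM at 7 Gy (1.07, 7.1e-05). Without the block it was the only gene of the 5 lists called at 2 Gy. At 7 Gy Sqstm1 also rose, from 107 ± 3.83 to 156 ± 3.27 CPM (0.54, 0.0012), while 3 other targets fell. These were Ugdh, from 34.8 ± 2.72 to 21.8 ± 1.42 CPM (-0.68, 0.0025), the biliverdin reductase gene Blvrb, from 52.7 ± 8.24 to 34.9 ± 3.97 CPM (-0.60, 0.022), and malic enzyme, Me1, from 53.4 ± 8.18 to 36.2 ± 7.79 CPM (-0.56, 0.032). Ugdh was also lower at 4 Gy (-0.57, 0.018). Gpx3, a secreted glutathione peroxidase too scarce for the naming rule, was higher as well. Mafk rose (0.72, 0.028) and Slc3a2, the partner chain of the cystine importer, fell (-0.39, 0.048). The transferases Gsta1, Gstm2 and Gstm5 fell, to 25.4 ± 12.4 CPM from 67.4 ± 8.95 (-1.42, 0.0077), to 27.5 ± 3.53 CPM from 47.8 ± 7.31 (-0.80, 0.0090) and to 14.4 ± 2.32 CPM from 27.4 ± 3.05 (-0.93, 0.016). No other transferase of the 20 tested was called without the block, and with it 6 were lower and 0 higher.

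The 7 Gy response differed between the days for 7 of 82 list entries, beside 3.01% of all genes and 6.14% of the well-counted genes. With the block it did so for 18, beside 5.26%. Day 11 minus day 7, it was lower for Ephx1 (-0.86 on the log2 scale, edgeR adjusted p = 0.00093), Sqstm1 (-0.70, 0.0054), Taldo1 (-0.51, 0.019) and Mafg (-0.51, 0.038). It was higher for Gsta1 (2.89, 0.023), Ugdh (1.17, 0.013) and Prdx4 (1.13, 0.025). At day 11 and 7 Gy the lists gave 2 calls without the block and 20 with it, beside 1.52% and 6.51% of all genes. Of the well-counted genes 2.85% were called there without the block. The 2 were Gsta3, lower at 165 ± 16.5 against 242 ± 25.3 CPM (-0.59, 0.024), and Txnip, lower at 210 ± 21.1 against 304 ± 15.0 CPM (-0.57, 0.021).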

How the data were processed

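RNA of 27 organoid libraries (RIN above 9, 80 ng input, though the labels also give 100 ng) was made into Smart3SEQ libraries, which capture transcript 3′ ends, and sequenced as 75 bp single reads. The authors aligned reads to GRCm39, and the submitters' processing notes name STAR and edgeR without versions. The annotation, the counting tool and the treatment of molecular identifiers are not given in the sources used here. The table as deposited by the authors holds an estimated count per gene symbol, not normalized. Of its nonzero values 56.3% are whole numbers, and division of reads can raise or lower genes with close copies.

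Counts were rounded and tested with edgeR 4.0.16 in R 4.3.3 (quasi-likelihood test, TMM factors, at least 10 counts summed over a fit, Benjamini-Hochberg adjusted p under 0.05) in 4 fits, on the 9 unirradiated libraries, the 12 of day 7, the 12 of day 11, and the 24 of both days for the interaction. Levels are CPM of the deposited totals. Depth of 2528866 to 5723150 counts sets a floor of 3 counts, for counting error only. Same-culture libraries deviated together in every pair (lowest correlation 0.121, 0.199 and 0.24 for days, day 7 and day 11), and the labels number the same mice in every group, so a fit with the culture as a block is given where it changes a call. No pair of replicates was alike within sampling noise (chi-square at least 3.62 per degree of freedom). The test was checked on data simulated from the unirradiated libraries, with 4-fold changes and no culture effect. That check does not cover the smaller changes with dose or the block. The 10 genes and all lists were chosen with earlier results of these data known. Named genes of the further lists are up to 3 per direction and comparison with the largest change among those past the threshold with a mean of at least 10 CPM. Alternatives were DESeq2 1.42.0, no TMM factors, no or a stricter filter, only the compared groups, no ribosomal and mitochondrial RNA, the block, and leaving out each library. Gene positions come from GENCODE vM39, which named 79.7% of the symbols and all 10 genes, and promoters from RefSeq (GRCm38.p6 table, matched by sequence to GRCm39).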

Additional observations from a re-analysis of the deposited data

Results flagged for a closer look

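Of the 10 genes, 2 passed a test of the difference between the 7 Gy responses at the 2 days. The test was an interaction term in edgeR with the culture as a block, which called 5.26% of all 21928 genes. For Gsto1 the log2 interaction was -0.499 (edgeR adjusted p = 0.047), from a rise of 0.58 at day 7 to 0.06 at day 11. For Gstm1 it was 1.15 (edgeR adjusted p = 0.00038), from -1.65 at day 7 to -0.54 at day 11. Without the block neither passed (edgeR adjusted p = 0.20 and 0.16), where 3.01% of all genes were called. Dropping the filter on low counts as well left the values at -0.50 and 1.15 (edgeR adjusted p = 0.013 and 8.2e-09). That setting called 1234 genes, against 660 with the filter, so these p-values depend on the filter while the sizes do not.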

How the results depend on the processing

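Of the 23 calls of the 10 genes, 0 reversed under any alternative. DESeq2, the culture as a replicate block and leaving out ribosomal and mitochondrial RNA lost 0 of them, no TMM factors and a mean of at least 10 counts lost 1 each, no filter 2, only the compared groups 3, and leaving out 1 library at a time lost 11 at least once, each given in the report. Without TMM factors the median of all genes moved from 0.04 to -0.11 for day 7 against day 5 and from 0.06 to -0.08 for day 11 against day 5, and values given here are relative to the scaled medians. The replicate block added 13 calls, given beside each gene, and lost 0. For 2, 4 and 7 Gy at day 7, 24, 315 and 1345 genes were called, and 139, 1010 and 2206 with the replicate block, 404, 1263 and 2211 without a filter, 59 by DESeq2 at 2 Gy, and 7 at 2 Gy with only the compared groups. At day 11 the counts were 0, 1 and 302, and 72, 238 and 1296 with the replicate block, 267, 465 and 1205 without a filter, 1 and 37 by DESeq2 at 2 and 4 Gy, and 0 at 4 Gy with only the compared groups. The interaction went from 660 genes to 1153 with the block and 1234 without a filter. Of the 10 genes, the block called 1, 3 and 6 at day 7, 1, 1 and 2 at day 11, and 2 for the interaction, and no filter 2 at 2 Gy and day 7, 3, 1 and 2 at day 11, and 3 for the interaction. At 4 Gy and day 7 both a mean of at least 10 counts and only the compared groups left 1. Leaving out 1 library gave 8 to 24 genes at 2 Gy, 125 to 229 at 4 Gy and 705 to 1001 at 7 Gy of day 7, and 0 to 1 at 4 Gy and 60 to 165 at 7 Gy of day 11. Of the 10 genes it left 2 to 6 for day 11 against day 7, 0 to 1 at 4 Gy and 2 to 4 at 7 Gy of day 7. Gsto1 ranked 4th by mean CPM and 1st without ribosomal and mitochondrial RNA. The cause of these differences was not tested, beyond the number of genes or libraries that a setting removes. Of 90 group levels in CPM, 56 moved by more than their SD when ribosomal and mitochondrial RNA was left out of the totals, where all 90 rose 1.11 to 1.19 times, and 5 on TMM-scaled totals, where the 90 became 0.924 to 1.03 times as large.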
